A study of Mus musculus with 15 samples.

Results

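Abcc8, Kcnj11, Trpm5, Cacna1a, Cacna1c, Cacna1d and Cacnb2 encode subunits of ion channels through which a pancreatic beta cell turns glucose metabolism into insulin release. They were taken by gene symbol from the deposited count table, as 7 of its 24060 entries, and all 7 were among the 15460 genes that passed the filter on low counts. RNA was sequenced from bulk islets of FVB/NJ mice aged 9 to 10 weeks, in 5 groups of 3 libraries. The WT group carried no transgene. The hIAPP mice expressed islet amyloid polypeptide of human sequence, a beta cell hormone that can form amyloid, and the rIAPP mice expressed the rodent sequence, which does not. The hCAST mice expressed human CAST, the gene of the calpain inhibitor calpastatin, and the hIAPP_hCAST mice carried both human transgenes. The labels place each transgene under an insulin promoter, named insulin II for all but the calpastatin transgene of hIAPP_hCAST, so these are models of expression driven in beta cells. The number of founder lines and of animals per library was not given in the sources used here. Sample titles of WT and hCAST are numbered in 1 range, those of hIAPP and hIAPP_hCAST in another and those of rIAPP apart, and what those ranges stand for cannot be told apart from the IAPP transgenes.

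At low glucose the ATP-sensitive potassium (KATP) channel keeps the beta cell membrane hyperpolarized. Its pore is Kir6.2, encoded by Kcnj11, and its regulatory subunit is the sulfonylurea receptor SUR1, encoded by Abcc8. ATP made from glucose closes the channel, the membrane depolarizes, voltage-gated calcium channels open and the calcium that enters triggers exocytosis of insulin granules. Cacna1c and Cacna1d encode the L-type pores Cav1.2 and Cav1.3, Cacna1a encodes the P/Q-type pore Cav2.1, and Cacnb2 encodes an auxiliary beta subunit that helps bring pores to the membrane. Trpm5 encodes a calcium-activated cation channel that passes sodium and adds to the depolarization.

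On the GRCm38 assembly, GENCODE M21 places Abcc8 at chr7:46104523-46180033 and Kcnj11 at chr7:46093953-46100764, both on the minus strand with 3758 bases between them. Trpm5 lies at chr7:143069153-143094642 and Cacna1d at chr14:30039939-30491455, also on the minus strand. The other genes are Cacna1c at chr6:118587240-119196418 on the minus strand, Cacna1a at chr8:84388440-84640246 on the plus strand and Cacnb2 at chr2:14603088-14987908 on the plus strand. Trpm5 shares 220 of its 6398 exonic bases with Tssc4 on the opposite strand, and Cacna1d shares 589 of 12621 with Chdh. Cacna1a shares 435 bases with Gm16183 and Cacnb2 shares 618, 111 and 239 bases with 3 opposite-strand genes. Because the strand setting of the counting was not given in the sources used here, reads in those stretches cannot be assigned to either partner.

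Of the 7 genes, 4 had promoter entries (250 bases before to 50 after a transcript start) in the RefSeq table for GRCm38.p6. The entries of Trpm5 and Cacna1d are shown because these were the 2 genes that fell in islets with human IAPP. The Trpm5 entry spans chr7:143094593-143094892. The Cacna1d entries span chr14:30491107-30491406 and chr14:30353437-30353736. All 3 are minus strand and are written 5′ to 3′. Capitals mark matches, on either strand, to the E-box CANNTG, a motif bound by factors such as Neurod1, and to TAAT, the core bound by homeodomain factors such as Pdx1.
Trpm5: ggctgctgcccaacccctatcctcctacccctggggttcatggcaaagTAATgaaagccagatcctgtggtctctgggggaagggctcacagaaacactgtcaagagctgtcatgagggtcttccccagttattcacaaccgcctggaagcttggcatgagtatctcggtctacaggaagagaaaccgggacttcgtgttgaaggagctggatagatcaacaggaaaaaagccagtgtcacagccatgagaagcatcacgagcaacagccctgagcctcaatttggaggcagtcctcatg
Cacna1d start 1: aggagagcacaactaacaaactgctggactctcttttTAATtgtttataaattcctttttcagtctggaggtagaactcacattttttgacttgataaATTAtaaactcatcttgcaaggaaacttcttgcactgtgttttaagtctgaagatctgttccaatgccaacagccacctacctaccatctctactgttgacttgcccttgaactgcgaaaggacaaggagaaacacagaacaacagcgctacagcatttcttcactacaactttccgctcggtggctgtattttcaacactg
Cacna1d start 2: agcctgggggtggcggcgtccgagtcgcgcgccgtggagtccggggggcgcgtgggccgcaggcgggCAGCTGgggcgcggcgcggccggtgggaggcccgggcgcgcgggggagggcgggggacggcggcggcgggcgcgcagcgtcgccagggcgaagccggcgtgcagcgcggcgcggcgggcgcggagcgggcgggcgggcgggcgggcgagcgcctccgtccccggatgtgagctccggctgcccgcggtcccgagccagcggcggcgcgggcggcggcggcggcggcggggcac
The Trpm5 window held 1 TAAT match and no E-box match. The first Cacna1d window held 2 TAAT matches and no E-box match, and the second held 1 E-box match and no TAAT match, with 6 matches to the GC box GGGCGG and 87.3% G and C bases. Among 32851 promoter windows of the same length, 72.3% held CANNTG, 58.0% held TAAT and 35.7% held GGGCGG, so each motif was common, and a match is only a description of letters.

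Library totals ranged from 28287011 to 40191501 counts. The 3 ribosomal-rich entries Rn45s, Lars2 and Mir6236 took 94.3% of counts in WT replicate 2, 68.9% in WT replicate 3 and 67.7% in rIAPP replicate 2, and 0.286% to 11.8% in the other 12 libraries. Those 3 libraries had 1667190, 8796210 and 9510502 counts on all other entries, against 30199765 to 40062153 elsewhere, and the smallest count of any of the 7 genes was 113, for Cacna1a in WT replicate 2. Levels are given as TMM-scaled CPM (counts scaled by library size). Mouse Cast was 20.9 ± 0.95 CPM in WT and 21.1 ± 0.66 CPM in hCAST (SD, n = 3), and mouse Iapp was 23549 to 43427 CPM in WT and 34777 to 39143 CPM in rIAPP. These counts do not check the transgenes. Reads from the human transgenes were not examined, and it was not tested whether mouse Iapp also includes reads of the rodent IAPP transgene. All 15 beta cell markers, among them Ins1, Ins2, Pdx1 and Mafa, were detected in every library. Their summed level was 140635 to 170129 CPM in WT, 118850 to 128780 in hCAST, 97977 to 108403 in hIAPP, 93655 to 108422 in hIAPP_hCAST and 78550 to 88712 in rIAPP. In bulk tissue, fewer cells of a type and less RNA per cell cannot be told apart.

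Per kilobase of the gene length implied by the deposited counts and FPKM, Abcc8 was the most abundant of the 7 in WT islets. It stood at 158.8 ± 28.3 CPM per kilobase (SD, n = 3). Kcnj11 at 37.3 ± 1.36 and Trpm5 at 35.97 ± 4.01 CPM per kilobase followed, and their ranges overlapped. Cacna1d at 10.7 ± 0.91 and Cacnb2 at 10.4 ± 2.34 CPM per kilobase came next. Cacna1a, at 5.99 ± 0.38 CPM per kilobase, and Cacna1c, at 3.92 ± 0.39, were lowest. On these lengths Trpm5, level with Kcnj11 in WT, stood at 6.19 ± 2.14 CPM per kilobase in rIAPP. That was below Cacna1d at 9.12 ± 0.58 and Cacnb2 at 7.20 ± 0.57. The implied lengths were 4383 bases for Trpm5, 3252 for Kcnj11, 9252 for Cacna1d and 4450 for Cacnb2. GENCODE M21 gives these genes 6398, 3677, 12621 and 13228 exonic bases. The order of genes depends on the length used, and the order on exonic bases was not tested.

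**Figure D1:**
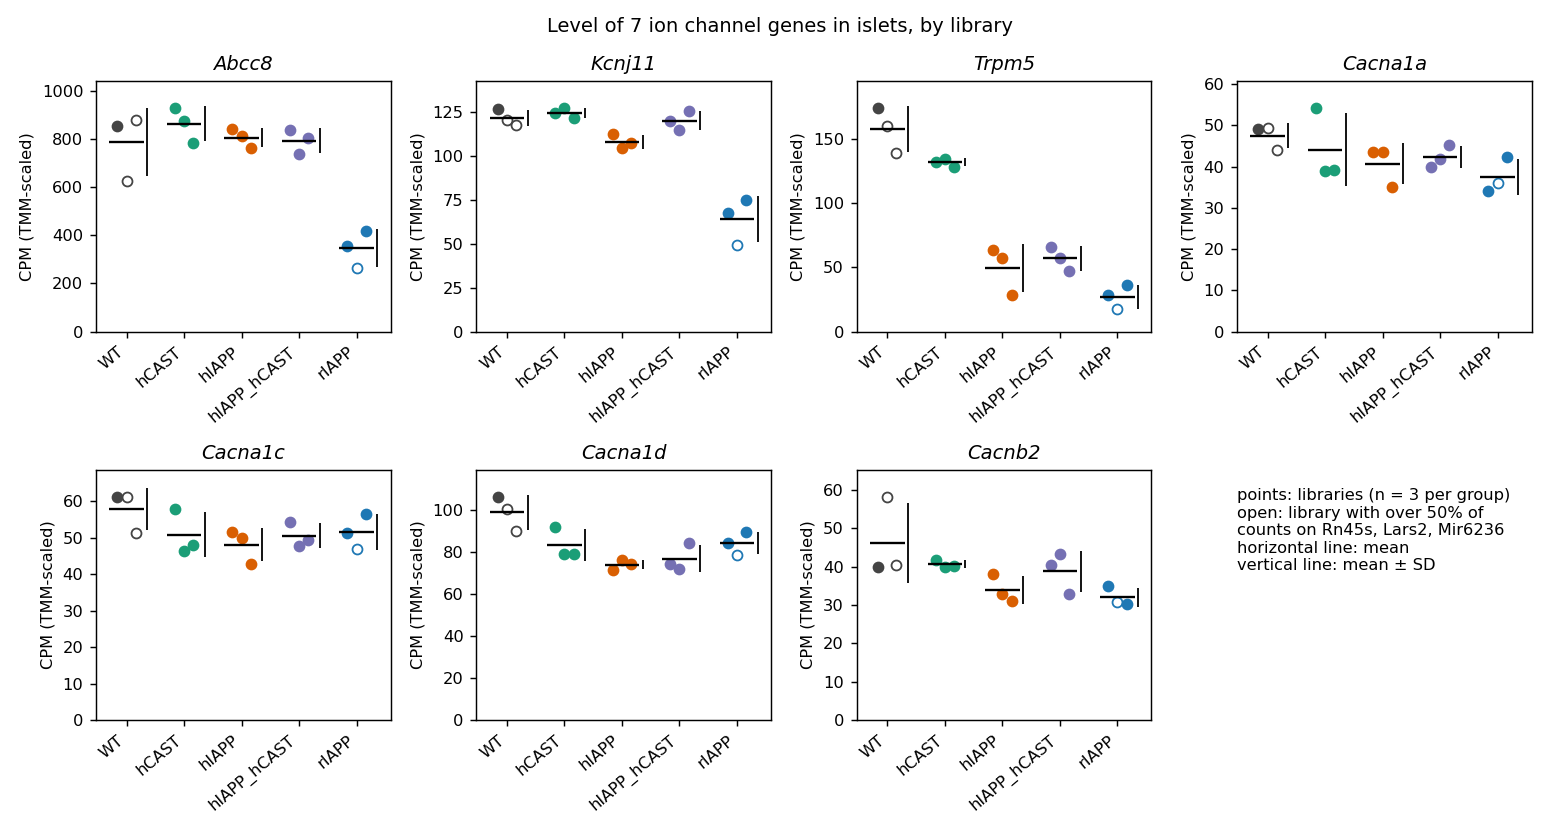
Level of the 7 channel genes in each of the 15 islet libraries, in TMM-scaled CPM on a linear axis that starts at 0, by group. Points are libraries, open where ribosomal-rich entries took over 50% of counts, the horizontal line is the mean and the vertical line the SD (n = 3). Abcc8 and Kcnj11 were low in rIAPP alone, with Abcc8 at 266 to 419 CPM, while Trpm5 was low in all 3 groups with an IAPP transgene.

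Of the 7 genes, Abcc8, Kcnj11, Trpm5 and Cacnb2 were lower in rIAPP than in WT islets and none was higher, where 23.3% of all tested genes passed in either direction (edgeR quasi-likelihood test, Benjamini-Hochberg adjusted p below 0.05). In hIAPP against WT, Trpm5 and Cacna1d were lower and none was higher, against 11.9% of all genes. The median log2 fold change of the 7 genes was -0.26 in hIAPP and -0.46 in rIAPP, against 0.02 and 0.01 for all genes. Both comparisons use the same WT libraries, so their values are given side by side and not counted as separate support. The KATP genes also differed between the IAPP transgenes in a direct test, described below.

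Both KATP genes were low in rIAPP islets. Abcc8, the SUR1 gene, was 855, 625 and 878 CPM in the WT libraries and 356, 266 and 419 CPM in rIAPP. It was 841, 811 and 762 CPM in hIAPP, 836, 736 and 805 CPM in hIAPP_hCAST and 929, 874 and 784 CPM in hCAST. The highest rIAPP library lay below the lowest library of every other group, and the other 4 groups overlapped. Abcc8 was 2.27-fold lower in rIAPP than in WT (log2 fold change -1.18 ± 0.15 SE, edgeR adjusted p = 2.42e-05). Kcnj11, the Kir6.2 gene, was 126, 120.0 and 118 CPM in WT and 67.5, 49.4 and 74.7 CPM in rIAPP, against 112, 104 and 107 CPM in hIAPP, 119, 115 and 125 CPM in hIAPP_hCAST and 124, 127 and 121 CPM in hCAST. Here too each rIAPP library was below all libraries of the other groups. Kcnj11 was 1.89-fold lower in rIAPP than in WT (log2 fold change -0.92 ± 0.11 SE, edgeR adjusted p = 1.03e-05).

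The rIAPP islets were also set against each other group. In hIAPP minus rIAPP, 2 of the 7 genes were higher, against 13% of all genes. These were Abcc8, at a log2 fold change of 1.21 ± 0.15 SE (edgeR adjusted p = 2.96e-05), and Kcnj11, at 0.75 ± 0.10 (edgeR adjusted p = 9.44e-05). In rIAPP minus hCAST, Abcc8, Kcnj11 and Trpm5 were lower, against 22.4% of all genes, with log2 fold changes of -1.31, -0.95 and -2.25 (edgeR adjusted p = 7.69e-06, 4.90e-06 and 0.000270). In hIAPP_hCAST minus rIAPP the same 3 genes were higher, against 18.2% of all genes, at 1.19, 0.90 and 1.04 (edgeR adjusted p = 2.86e-05, 1.22e-05 and 0.0306). The Trpm5 call there was lost without rIAPP replicate 1 (adjusted p = 0.0832), rIAPP replicate 2 (0.0852), hIAPP_hCAST replicate 1 (0.101) or hIAPP_hCAST replicate 2 (0.0650). It was also lost with only these 2 groups fitted (0.0548) and without the ribosomal-rich libraries (0.83, adjusted p = 0.119). In hIAPP against WT, Abcc8 and Kcnj11 did not pass, at 0.03 ± 0.15 SE and -0.17 ± 0.10 SE (edgeR adjusted p = 0.932 and 0.306). The interval for Kcnj11 in that comparison ran from -0.38 to 0.03 and its libraries did not overlap those of WT.

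**Figure D2:**
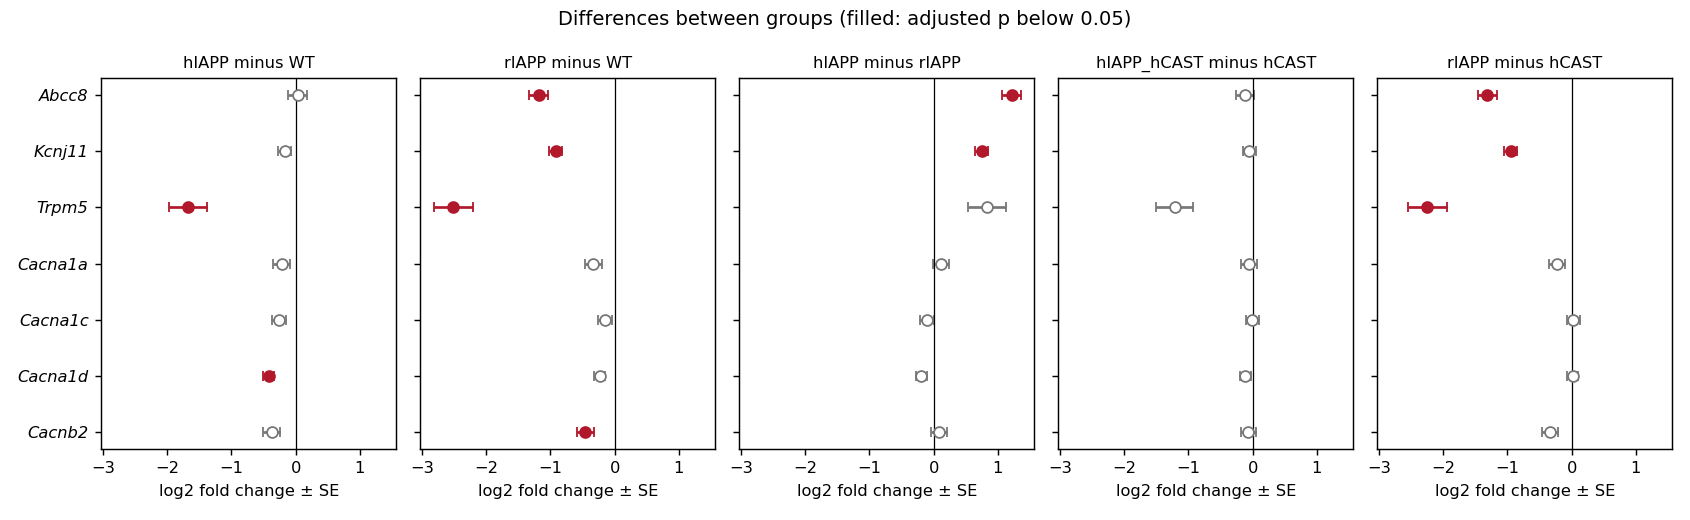
Log2 fold change with its SE (edgeR, n = 3 libraries per group) for the 7 genes in 5 of the 10 pairwise comparisons, with filled points where the adjusted p was below 0.05. Trpm5 lay left of 0 in all 4 comparisons of an IAPP group with WT or hCAST, and Abcc8 and Kcnj11 were filled in each comparison that involved rIAPP.

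The 2 KATP subunits assemble in equal number, and the ratio of their FPKM (reads scaled by gene length and library total) within a library does not depend on its depth. The Abcc8 to Kcnj11 ratio was 4.26 ± 0.76 in WT, 4.56 ± 0.34 in hCAST, 4.90 ± 0.22 in hIAPP, 4.34 ± 0.22 in hIAPP_hCAST and 3.56 ± 0.11 in rIAPP (SD, n = 3). The rIAPP libraries, at 3.47 to 3.68, lay below all libraries of hCAST, hIAPP and hIAPP_hCAST, and within the WT range of 3.42 to 4.90. On the log2 scale the ratio was lower in rIAPP by 0.35 than in hCAST, by 0.46 than in hIAPP and by 0.28 than in hIAPP_hCAST, each with a two-sided exact permutation p = 0.1, the smallest that 3 against 3 libraries allow. Adjusted over the 10 pairwise comparisons, each of these was 0.25, so the design could not place the differences past 0.05. The difference from WT was -0.24 (exact permutation p = 0.4), and the low end of the WT range was WT replicate 2, the library with the fewest counts. Both subunits were thus low in rIAPP, and a change of their ratio from WT was not detectable with these libraries.

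Trpm5 was lower in each group with an IAPP transgene. It was 174, 159.8 and 139 CPM in WT and 132, 135 and 128 CPM in hCAST. It was 63.1, 56.9 and 28.2 CPM in hIAPP, 66.1, 57.6 and 47.1 CPM in hIAPP_hCAST and 28.3, 17.2 and 35.9 CPM in rIAPP. The highest of the 9 libraries with an IAPP transgene lay below the lowest of the 6 without one. The fold against WT was 3.19 in hIAPP (log2 fold change -1.68 ± 0.30 SE, edgeR adjusted p = 0.00554) and 5.69 in rIAPP (-2.51 ± 0.31 SE, edgeR adjusted p = 0.000150). Of 15460 tested genes, 17 had a lower log2 fold change in hIAPP against WT and 42 in rIAPP against WT. With the 3 ribosomal-rich libraries left out, which leaves WT with 1 library assumed to vary like the other groups, the values were -1.83 (edgeR adjusted p = 0.0391) and -2.45 (0.00543).

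In mean level Trpm5 ran from WT over hCAST, hIAPP_hCAST and hIAPP to rIAPP, and no pair of neighbours in that order passed the test. In hIAPP minus rIAPP it was 0.83 ± 0.29 SE (edgeR adjusted p = 0.0954), with overlapping libraries. That difference passed without hIAPP replicate 3, the lowest hIAPP library at 28.2 CPM (1.11, edgeR adjusted p = 0.00619), by DESeq2 (adjusted p = 0.0286) and by limma voom with library weights (0.00977). In hIAPP minus hCAST, 1 of the 7 genes was lower, against 7.19% of all genes, and it was Trpm5 at -1.42 ± 0.29 SE (edgeR adjusted p = 0.0140). Without hCAST replicate 2 its adjusted p was 0.0585, and with only these 2 groups fitted 0.0643. In hIAPP_hCAST minus hCAST, 0 of 7 passed by edgeR, against 0.75% of all genes. There Trpm5 was -1.21 ± 0.29 SE with no overlap (edgeR adjusted p = 0.103) and was the 1 gene of the 7 with an unadjusted p below 0.05 (0.00141). DESeq2 and limma voom each called it (adjusted p = 0.00420 and 0.0226).

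Trpm5 is also a gene of tuft cells, chemosensory cells of hollow organs. The defining tuft genes Pou2f3 and Gnat3 were at most 0.11 and 0.22 CPM in any library, and 7 of the 9 tuft markers were in the table. Their summed level was 11.4 to 15.7 CPM in WT, 21.0 to 22.2 in hIAPP and 29.0 to 30.3 in rIAPP, the opposite direction to Trpm5.

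Among the calcium channel pores, Cacna1d was the gene whose difference passed. Cacna1d, the Cav1.3 gene, was 107, 101 and 89.9 CPM in WT and 71.8, 76.1 and 74.2 CPM in hIAPP. It was 74.4, 72.2 and 84.4 CPM in hIAPP_hCAST, 84.7, 78.9 and 89.6 CPM in rIAPP and 92.2, 79.0 and 79.0 CPM in hCAST. The hIAPP libraries were the tightest group, and all lay below every WT, hCAST and rIAPP library. Cacna1d was 1.34-fold lower in hIAPP than in WT (log2 fold change -0.42 ± 0.087 SE, edgeR adjusted p = 0.00600). In rIAPP minus WT it was -0.23 ± 0.087 SE (edgeR adjusted p = 0.0678), with no overlap, and it passed without WT replicate 3 (-0.30, adjusted p = 0.0370). The direct difference of hIAPP from rIAPP, -0.19 ± 0.084 SE, did not pass (edgeR adjusted p = 0.171). Against hCAST, the hIAPP value was -0.17 ± 0.084 SE (edgeR adjusted p = 0.247).

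Cacna1c, the Cav1.2 gene, passed in 0 of the 11 comparisons. It was 61.2, 61.3 and 51.4 CPM in WT, 51.6, 50.01 and 42.9 CPM in hIAPP, and 51.4, 46.8 and 56.5 CPM in rIAPP, and the groups overlapped. Its log2 fold changes against WT were -0.26 ± 0.11 SE in hIAPP and -0.16 ± 0.11 SE in rIAPP (edgeR adjusted p = 0.125 and 0.321). Cacna1a, the Cav2.1 gene, also passed in 0 of the 11. It was 49.1, 49.5 and 44.0 CPM in WT, 43.6, 43.6 and 35.1 CPM in hIAPP and 34.2, 35.96 and 42.3 CPM in rIAPP. The log2 fold changes were -0.22 ± 0.13 SE in hIAPP and -0.33 ± 0.13 SE in rIAPP (edgeR adjusted p = 0.305 and 0.0811). The rIAPP value passed without rIAPP replicate 3 (adjusted p = 0.0464) and when only WT and rIAPP were fitted (0.0288).

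Cacnb2, the auxiliary beta subunit, was 39.9, 58.2 and 40.4 CPM in WT and 34.9, 30.9 and 30.3 CPM in rIAPP. The WT value of 58.2 CPM came from WT replicate 2 and rested on 133 counts. Cacnb2 was 1.37-fold lower in rIAPP than in WT (log2 fold change -0.46 ± 0.13 SE, edgeR adjusted p = 0.0182). That call was lost without WT replicate 2 (-0.31, adjusted p = 0.0624), without rIAPP replicate 2 (0.0579), without rIAPP replicate 3 (0.0661) and without all 3 ribosomal-rich libraries (-0.30, adjusted p = 0.271). In hIAPP it was 38.0, 32.8 and 31.1 CPM, -0.37 ± 0.13 SE from WT, which did not pass by edgeR (adjusted p = 0.0691) and passed by DESeq2 (0.0403). It was 41.7, 39.8 and 40.3 CPM in hCAST and 40.4, 43.2 and 32.8 CPM in hIAPP_hCAST.

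The calpastatin transgene moved none of the 7 genes past the threshold. In hCAST minus WT, 0 of 7 passed by edgeR, against 0.0194% of all genes, and Cacna1d alone had an unadjusted p below 0.05 (0.0111), at -0.25 ± 0.087 SE (adjusted p = 0.615). The WT and hCAST libraries of Trpm5 did not overlap, at -0.26 ± 0.29 SE (edgeR adjusted p = 0.935). In hIAPP_hCAST minus hIAPP, 0 of 7 passed, against 0.466% of all genes, and 0 had an unadjusted p below 0.05. Trpm5 was 0.20 ± 0.29 SE there, with an interval from -0.36 to 0.76 and a value of -0.08 without hIAPP replicate 3, and Kcnj11 was 0.15 ± 0.10 SE with no overlap (edgeR adjusted p = 0.865 and 0.635). DESeq2 and limma voom also called 0 of 7 in both comparisons. Against WT, hIAPP_hCAST islets had 2 of 7 genes lower, against 3.48% of all genes. These were Trpm5, at -1.47 ± 0.29 SE (edgeR adjusted p = 0.0240), and Cacna1d, at -0.36 ± 0.087 SE (edgeR adjusted p = 0.0321). The Trpm5 call was kept without hIAPP_hCAST replicate 1 and lost without any other library of the 2 groups (adjusted p = 0.0521 to 0.0791). The Cacna1d call was lost without WT replicate 1 (0.0977), WT replicate 2 (0.0639), hIAPP_hCAST replicate 1 (0.0739) or hIAPP_hCAST replicate 2 (0.110).

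The interaction subtracts hIAPP minus WT from hIAPP_hCAST minus hCAST and so tests whether the human IAPP difference depended on the calpastatin transgene. It passed for 0 of 7 genes, against 0% of all genes by edgeR, where 1346 genes had an unadjusted p below 0.05 and DESeq2 called 47. DESeq2 and limma voom called 0 of the 7 genes. The smallest unadjusted p of the 7 was 0.0223 for Cacna1d, at 0.30 ± 0.12 SE (adjusted p = 0.486). For Trpm5 the interaction was 0.46 ± 0.41 SE (edgeR adjusted p = 0.774), with an interval from -0.33 to 1.26, so the data did not fix its size.

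Beta cell markers fell in the same islets. Of 15 markers, 11 were lower in hIAPP than in WT, with a median log2 fold change of -0.60, 14 were lower in rIAPP, with a median of -1.64, and 0 passed in hCAST, with a median of -0.18. Of all tested genes, 11.9% passed in hIAPP, 23.3% in rIAPP and 0.0194% in hCAST against WT, in either direction. Markers of other cells moved as well. In hIAPP against WT, 7 of 8 tested macrophage markers were higher and Cd74 was lower, and 6 of 7 smooth muscle and pericyte markers were higher. In rIAPP, 6 of 6 fibroblast and stellate markers and 5 of 7 endothelial markers were higher. Summed acinar markers were 9642 to 43822 CPM in WT, 36482 to 80339 in hIAPP and 57192 to 79094 in rIAPP, and 0 of 11 passed in either. The part of cell composition in the channel results was not tested.

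Each channel gene was therefore also expressed relative to the mean log2 CPM of the 15 beta cell markers in its own library. On this log2 scale Trpm5 was -2.57 ± 0.19 in WT, -2.66 ± 0.07 in hCAST, -3.68 ± 0.55 in hIAPP, -3.52 ± 0.30 in hIAPP_hCAST and -3.68 ± 0.28 in rIAPP (SD, n = 3). It was lower than in WT by 1.11 in hIAPP, by 1.10 in rIAPP and by 0.94 in hIAPP_hCAST, with no overlap (two-sided exact permutation p = 0.1 each, 0.167 adjusted over 10 comparisons). The hIAPP and rIAPP groups differed by -0.01 on this scale (exact permutation p = 1). The other 6 genes had higher means than WT on this scale in hIAPP and in rIAPP. Because the markers themselves fell in both groups, a gene that fell less than the markers comes out higher on this scale. In CPM, 0 of the 7 genes passed as higher than WT in either group. Abcc8 was higher relative to the markers by 0.69 in hIAPP and by 0.30 in rIAPP, and Kcnj11 by 0.47 and 0.55, with no overlap with WT (exact permutation p = 0.1 each, 0.111 and 0.143 adjusted). Cacna1d was higher by 0.22 in hIAPP, with overlap, and by 1.26 in rIAPP, without (exact permutation p = 0.3 and 0.1). Cacna1a, Cacna1c and Cacnb2 were higher by 1.15, 1.32 and 0.98 in rIAPP, also without overlap (exact permutation p = 0.1 each). Of the 7 genes, Trpm5 was the 1 whose mean relative to the markers was below WT in hIAPP, hIAPP_hCAST and rIAPP on this scale. In hCAST the differences from WT were -0.09 for Trpm5, -0.03 for Cacna1c and -0.08 for Cacna1d, each with overlap. The mean of log2 CPM weighs each marker equally, while the summed CPM is set mainly by the most abundant ones. Iapp is among the markers, and whether reads of the rodent IAPP transgene were counted as Iapp was not tested. Against the summed CPM, Trpm5 was still lower than in WT by 1.17 in hIAPP and by 1.72 in rIAPP, with no overlap (exact permutation p = 0.1 each), and hIAPP and rIAPP then differed by 0.55 (exact permutation p = 0.3). Against that sum the direction of both KATP genes in rIAPP turned, to -0.32 for Abcc8 and -0.08 for Kcnj11 (exact permutation p = 0.3 and 0.6, with overlap), while the hIAPP values stayed above WT at 0.63 and 0.41 (exact permutation p = 0.1 each). In rIAPP, Cacna1a, Cacna1c, Cacna1d and Cacnb2 were higher against the sum by 0.52, 0.70, 0.64 and 0.36 (exact permutation p = 0.1, 0.1, 0.1 and 0.2).

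**Figure D3:**
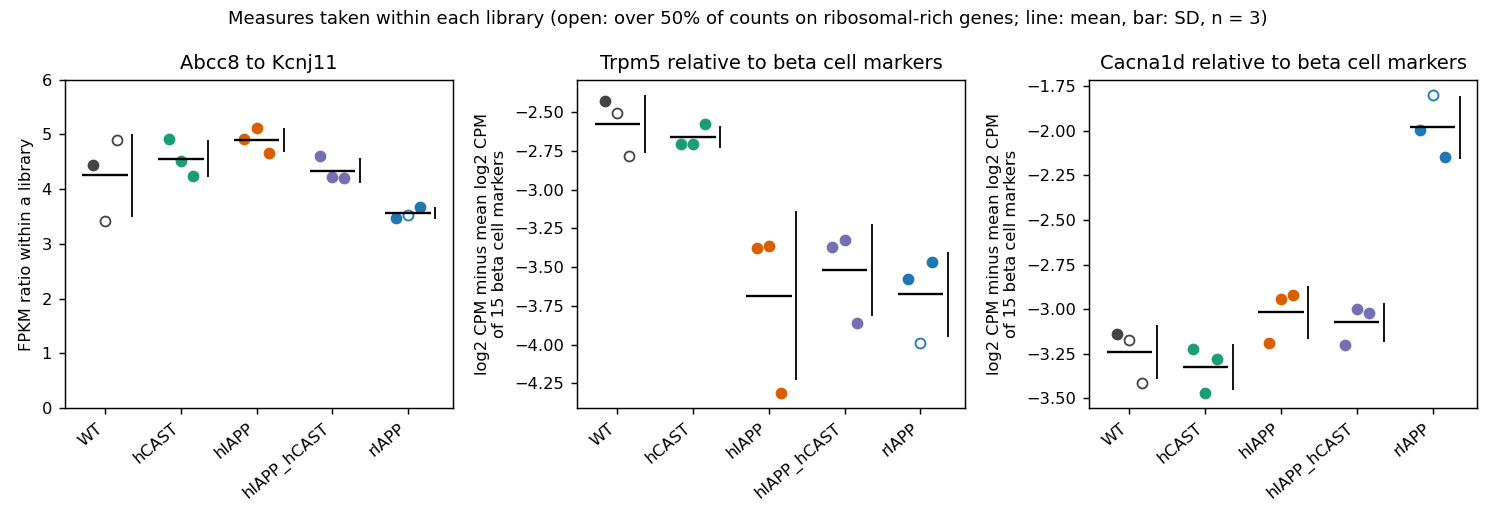
Measures taken within each library, for the 15 libraries by group: the Abcc8 to Kcnj11 ratio of FPKM, and the log2 CPM of Trpm5 and Cacna1d minus the mean log2 CPM of 15 beta cell markers. The 2 marker axes do not start at 0, points are libraries, lines are means and bars the SD (n = 3). Trpm5 lay lower in the 3 groups with an IAPP transgene, while Cacna1d lay highest in rIAPP.

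The other channel and calcium handling genes were read from 9 lists of 89 genes, of which 86 were tested. In hIAPP against WT, 8 were higher, 5 lower and 73 did not pass, with a median log2 fold change of 0.01, where 11.9% of all tested genes passed. In rIAPP, 18 were higher, 13 lower and 55 did not pass, with a median of 0.12, against 0.01 for all genes, of which 23.3% passed. In hCAST against WT and in hIAPP_hCAST against hIAPP, 0 passed. Without the 3 ribosomal-rich libraries, the hIAPP counts were 1 higher and 1 lower and the rIAPP counts 10 and 8. Of the 35 passing values of named genes in these lists, 17 also passed under each alternative on counts and 9 were lost only when those libraries were left out. These 9 were Trpv2, Scn3a, Ano1 and Gjd2 in hIAPP and Cacna2d3, Trpc1, Kcnma1, Scn1a and Clcn3 in rIAPP. The remaining 9 were lost without the ribosomal-rich libraries and under another alternative as well.

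Closest to the KATP genes are their vascular counterparts, Kcnj8 for the pore Kir6.1 and Abcc9 for SUR2, which pericytes and smooth muscle use. Kcnj8 rose from 0.95 ± 0.07 CPM in WT to 3.28 ± 0.37 in hIAPP and 7.95 ± 0.55 in rIAPP (SD, n = 3), with log2 fold changes of 1.75 ± 0.28 SE and 3.02 ± 0.28 SE (edgeR adjusted p = 0.00112 and 9.04e-07). It was 1.53 ± 0.60 CPM in hCAST and 2.30 ± 0.33 in hIAPP_hCAST. In rIAPP its direction was opposite to that of Kcnj11, at a level far below it. Abcc9 was higher in hIAPP (0.62, edgeR adjusted p = 0.0423), a call lost without WT replicate 1, WT replicate 2 or any hIAPP library, and did not pass in rIAPP (0.45, adjusted p = 0.0990). Of the summed smooth muscle and pericyte markers, WT had 157 to 199.6 CPM, hIAPP 281 to 350.1 and rIAPP 182 to 207. In rIAPP 2 of 7 were higher, where 23.3% of all genes passed. The part of these markers in the Kcnj8 rise was not tested.

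Of the 6 other calcium channel pores tested, 0 passed in hIAPP or rIAPP against WT. For these pores, the auxiliary subunits and the TRP channels, the shares of all genes that passed were 11.9% in hIAPP and 23.3% in rIAPP. Among auxiliary subunits, Cacna2d1, an alpha2delta subunit, was lower in hIAPP (-0.28, edgeR adjusted p = 0.0354) and higher in rIAPP (0.26, edgeR adjusted p = 0.0292). The direct difference was -0.53 ± 0.079 SE (edgeR adjusted p = 0.000183). The hIAPP call was lost without WT replicate 1 or 2 or hIAPP replicate 2 or 3, and the rIAPP call without WT replicate 3 or rIAPP replicate 1 or 2. Cacna2d3 was lower in rIAPP (-1.40, edgeR adjusted p = 0.00649). Of 9 other TRP channels tested, Trpv2 was higher in hIAPP (1.23, edgeR adjusted p = 0.00570). Trpc1 and Trpa1 were lower in rIAPP (-0.38 and -0.94, edgeR adjusted p = 0.0123 and 0.0423), and the Trpa1 call was lost without any of the 6 libraries. Trpm4, the relative of Trpm5 with the same calcium-activated gating, was 11.8 ± 0.45 CPM in WT and 14.0 ± 1.56 in hIAPP and did not pass (0.24, edgeR adjusted p = 0.325).

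Of 21 potassium channel genes, 1 rose and 1 fell in hIAPP and 5 rose and 4 fell in rIAPP, against the 11.9% and 23.3% of all genes that passed. Kcng3, a silent subunit that modifies Kv2 channels, fell from 7.36 ± 1.22 CPM in WT to 0.83 ± 0.57 in rIAPP (log2 fold change -2.88, edgeR adjusted p = 5.83e-06). In hIAPP it was 3.66 ± 0.21 CPM (-0.93, edgeR adjusted p = 0.0341), a call lost without any 1 of the 6 libraries. Kcnn4, an intermediate-conductance calcium-activated channel, rose in hIAPP (1.04, edgeR adjusted p = 0.0160, lost without WT replicate 1 or hIAPP replicate 1). In rIAPP, Kcnh6 rose (0.84, edgeR adjusted p = 8.14e-05) and Kcnb2 and Kcnma1 fell (-0.84 and -0.47, edgeR adjusted p = 0.000942 and 0.00496). Of 9 sodium channel genes, set against the same shares of all genes, Scn3a rose in hIAPP (0.48, edgeR adjusted p = 0.00356). Scn9a, Scn3b and Scn1a rose in rIAPP (0.53, 0.67 and 1.85, edgeR adjusted p = 0.000317, 0.000913 and 0.00232).

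Among 6 pacemaker and coupling genes, 2 were lower in hIAPP, and 2 were lower and 1 higher in rIAPP. Among 16 genes of calcium stores, pumps and exchangers, 1 was lower and 1 higher in hIAPP, and 3 were lower and 5 higher in rIAPP. For both lists the shares of all genes that passed were 11.9% in hIAPP and 23.3% in rIAPP. Gjd2, for connexin 36 that joins beta cells electrically, was 222 ± 7.22 CPM in WT, 169.9 ± 17.6 in hIAPP and 112 ± 6.60 in rIAPP, with log2 fold changes of -0.39 and -0.996 (edgeR adjusted p = 0.00548 and 2.67e-07). Atp2a2, for the calcium pump SERCA2 of the endoplasmic reticulum, was 1424 ± 87.9, 816 ± 78.2 and 679 ± 64.2 CPM (-0.80 and -1.07, edgeR adjusted p = 0.000269 and 2.10e-06). It was also lower in hIAPP_hCAST than in WT (-0.83, edgeR adjusted p = 0.000635). Hcn4, a pacemaker channel, was lower in both (-0.52 and -1.08, edgeR adjusted p = 0.0377 and 0.000109), and its hIAPP call was kept only without hIAPP replicate 2 among the 6 libraries. Atp2a3, for SERCA3, fell in rIAPP (-0.88, edgeR adjusted p = 7.10e-05), and Itpr1 rose (0.55, edgeR adjusted p = 0.000175). Itpr2 rose in hIAPP (0.42, edgeR adjusted p = 0.0323), a call lost without WT replicate 2 or 3 or hIAPP replicate 1 or 2. Among chloride channels, Ano1 rose in hIAPP (0.91, edgeR adjusted p = 0.00280), and Lrrc8b, a volume-regulated channel subunit, rose in hIAPP (0.51, adjusted p = 0.0289, lost without WT replicate 1 or 2 or hIAPP replicate 2 or 3) and in rIAPP (1.20, adjusted p = 1.26e-05). Ano6 fell and Clcn3 rose in rIAPP (-0.54 and 0.23, edgeR adjusted p = 0.000148 and 0.0123), and Nalcn, a sodium leak channel, rose there (0.37, edgeR adjusted p = 0.00423).

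**Figure D4:**
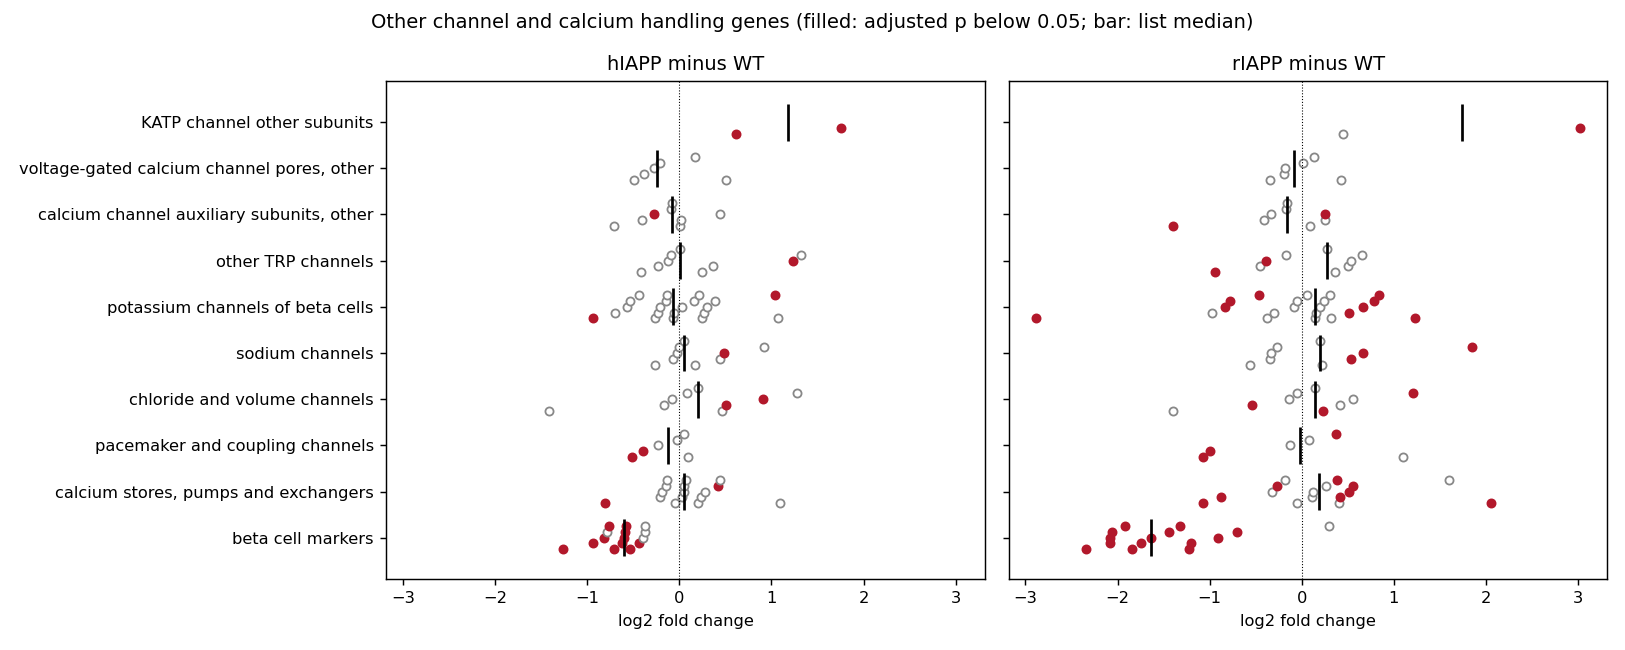
Log2 fold change of each tested gene of the 9 channel and calcium handling lists and of the 15 beta cell markers, in hIAPP minus WT and rIAPP minus WT (edgeR, n = 3 libraries per group). Filled points had an adjusted p below 0.05 and the bar is the list's median. The beta cell markers lay to the left in both panels, with medians of -0.60 and -1.64, while the medians of the channel lists other than the KATP subunits ran from -0.24 to 0.27.

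The genes named by rule that did not pass numbered 21 in hIAPP and 12 in rIAPP, with log2 fold changes from -1.41 (Cftr) to 1.33 (Trpv4) in hIAPP, and with -1.40 (Cftr) as the lowest in rIAPP.

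Genes were also ranked by the likeness of their profile to each channel gene, as Pearson's r of log2 CPM over the same 15 libraries among 12409 genes. These values are descriptions, and the libraries share the group structure. The most like Abcc8 were Nell1 (r = 0.985), Slc35d3 (0.975) and Pcx (0.974). For Kcnj11 they were Ccser1 (0.980), Sorl1 (0.980) and Kcng3 (0.979), and Sorl1 went from 71.2 ± 4.33 CPM in WT to 33.3 ± 4.54 in rIAPP. For Trpm5 they were Camk2n1 (0.975), Ucn3 (0.971), a marker of mature beta cells, and Tmem8 (0.970). Ucn3 was 455.6 ± 26.5 CPM in WT, 237 ± 24.3 in hIAPP and 146 ± 32.7 in rIAPP. The likest genes of Cacna1a, Cacna1c, Cacna1d and Cacnb2 were Pcdhga6 (0.913), Kmt2a (0.909), Bsn (0.912) and Numa1 (0.948), at lower r than for the KATP genes and Trpm5.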

How the data were processed

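Bulk islet RNA of 15 libraries was deposited as a table of raw counts per gene symbol and a table of FPKM. Per the submitters' processing notes the authors used STAR and HTSeq (versions not stated) with GRCm38, also called mm10. No source used here gives the annotation, the strand setting or the rule for multiply mapped reads. The deposited FPKM equal the counts divided by a gene length and the column total, ribosomal reads included, so they were used for ratios within a library and as an alternative only. Columns were matched to libraries by title and 0 were left unused. Of 24060 entries, 2 repeat a symbol. Replicate numbers follow accession order and pair nothing. Whether the 3 libraries of a group came from separate animals was not stated, so p-values measure the spread between these samples, which may be technical.

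Counts were tested with edgeR 4.0.16 (R 4.3.3): TMM, its filter on low counts by group, robust quasi-likelihood fits and 1 coefficient per group over all 15 libraries. A gene passed at a Benjamini-Hochberg adjusted p below 0.05 over the 15460 tested genes of a comparison, 10 pairwise and 1 interaction. The SE is the log2 fold change over the square root of F, intervals are 1.96 SE either side, and the common coefficient of variation was 0.132. Values per kilobase use the length implied by both tables. Ratios within libraries were compared by two-sided exact permutation of the libraries. The code was tested on simulated data. Alternatives were RLE scaling, no filter, DESeq2 1.42.0, limma 3.58.1 voom with library weights, only the compared groups, ribosomal-rich genes or libraries left out, each library left out, and limma on log2(FPKM + 1) and log2(FPKM + 0.1) for genes with FPKM of at least 1 in 3 libraries. The same test on FPKM rescaled from the column total to the TMM library size, and member levels against the summed CPM of the beta cell markers, were chosen after seeing the data. Named genes were the 7 members, the 4 genes of each channel list with the smallest p in hIAPP or rIAPP against WT (those not passing are summarised, and 2 genes are not reported here), and the 3 genes most like each member with a mean CPM of at least 1. The members, lists and rule were chosen with earlier results of these data known.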

Additional observations from a re-analysis of the deposited data

How the results depend on the processing

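Of the alternatives for the 7 genes, 1092 values kept sign and side of the threshold, 43 kept the sign and lost a call, and 24 kept it and gained one. The sign changed in 37 values with a call in either fit, all on the deposited FPKM without rescaling, and in 39 more on that FPKM and 39 under other alternatives, with no call in either fit. Among the latter, without the ribosomal-rich libraries, were Abcc8 in hIAPP minus WT (0.03 to -0.10) and in hIAPP_hCAST minus WT (0.01 to -0.11), and Kcnj11 (0.03 to -0.03) and Cacnb2 (-0.12 to 0.02) in hCAST minus WT. On unscaled log2(FPKM + 1) the median of all genes moved by 1.37 in hIAPP, 0.90 in rIAPP, 1.39 in hCAST and 1.43 in hIAPP_hCAST against WT, and the FPKM values below, for sign changes with a call, include that shift. The cause of each lost or gained call was not tested. Against WT, on log2(FPKM + 1) and log2(FPKM + 0.1) in turn, hIAPP gave Kcnj11 1.68 and 1.81, Trpm5 0.16 and 0.24, Cacna1a 1.20 and 1.68, Cacna1d 1.20 and 1.53, and Cacna1c 1.02 on the first scale. In rIAPP they were Abcc8 0.23 and 0.25, Kcnj11 0.41 and 0.49, and Cacnb2 0.69 and 0.90. In hCAST they were Trpm5 1.60 and 1.74, Cacna1a 1.31 and 1.79, Cacna1c 1.09 and 1.68, Cacna1d 1.37 and 1.71, and Cacnb2 1.48 and 1.80. In hIAPP_hCAST they were Kcnj11 1.88 and 2.02, Trpm5 0.47 and 0.57, Cacna1a 1.31 and 1.79, Cacna1c 1.13 and 1.72, Cacna1d 1.304 and 1.64, and Cacnb2 1.45 and 1.77. With FPKM rescaled to the TMM library size, no call of the 7 genes changed and no sign changed. On unscaled FPKM the number of the 7 genes called was 4 on log2(FPKM + 1) in hIAPP minus WT, 0 on both scales in rIAPP minus WT, hIAPP minus rIAPP, hIAPP minus hCAST and hIAPP_hCAST minus rIAPP, 7 on both in hCAST minus WT, 6 and 5 in hIAPP_hCAST minus WT, and 1 and 0 in rIAPP minus hCAST. In hIAPP_hCAST minus WT it was 1 with only the compared groups, 0 without the ribosomal-rich libraries and 0 to 1 over the libraries left out in turn that moved it. In hIAPP minus hCAST it was 0 to 1 over the libraries left out, and in hIAPP_hCAST minus hCAST it was 1 by DESeq2, 1 with only the compared groups and 1 by voom. Other gained calls were Cacna1d in hIAPP minus rIAPP (adjusted p = 0.0321) and Kcnj11 in hIAPP minus hCAST (0.0310) by edgeR with only the compared groups, and Cacnb2 in rIAPP minus hCAST with only the compared groups (0.00261) or by voom (0.00780) and in hIAPP_hCAST minus rIAPP by voom (0.0457) or without hIAPP_hCAST replicate 3 (0.0255). Counts of all genes called also moved by over 1.5 times. Without the ribosomal-rich libraries they went from 1833 to 383 in hIAPP minus WT, 3599 to 1525 in rIAPP minus WT, 538 to 33 in hIAPP_hCAST minus WT, 72 to 30 in hIAPP_hCAST minus hIAPP and 116 to 53 in hIAPP_hCAST minus hCAST. With DESeq2 they were 28 (3) in hCAST minus WT, 923 in hIAPP_hCAST minus WT, 283 in hIAPP_hCAST minus hIAPP, 258 in hIAPP_hCAST minus hCAST and 47 (0) for the interaction, with the edgeR count in brackets where not yet given. With only the compared groups they were 46 in hIAPP_hCAST minus WT, 2 in hIAPP_hCAST minus hIAPP, 9 in hIAPP_hCAST minus hCAST, 1784 (1112) in hIAPP minus hCAST and 1860 (2812) in hIAPP_hCAST minus rIAPP. With voom they were 337 in hIAPP_hCAST minus WT, 3483 (2009) in hIAPP minus rIAPP, 301 in hIAPP_hCAST minus hCAST, 3031 in hIAPP minus hCAST and 5925 (3456) in rIAPP minus hCAST, and with no filter 116 in hIAPP_hCAST minus hIAPP. On rescaled FPKM they were 29 in hIAPP_hCAST minus hIAPP, 36 in hIAPP_hCAST minus hCAST and 575 in hIAPP minus hCAST. On unscaled log2(FPKM + 1) the counts were 11130, 323, 11779 and 11841 for hIAPP, rIAPP, hCAST and hIAPP_hCAST against WT, and at most 93 in the other comparisons. With 1 library left out, they reached 995 without WT replicate 3 in hIAPP minus WT, 209 without WT replicate 3 and 936 without hIAPP_hCAST replicate 3 in hIAPP_hCAST minus WT, 1302 without rIAPP replicate 2 in hIAPP minus rIAPP, 18 without hIAPP replicate 2 and 175 without hIAPP_hCAST replicate 2 in hIAPP_hCAST minus hIAPP, 36 without hCAST replicate 2 and 356 without hIAPP_hCAST replicate 3 in hIAPP_hCAST minus hCAST, 377 without hCAST replicate 2 in hIAPP minus hCAST and 5 without hIAPP_hCAST replicate 2 for the interaction. No paired analysis was possible because the groups share no replicate numbers in the labels.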
